A study of Mus musculus with 7 samples.

Results

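Long noncoding RNAs that are abundant in mouse neutrophils were followed across 6 healthy libraries and 5 conditions of an inflammation experiment. The set comprised Malat1, Neat1, Gas5 and F630028O10Rik, each to be read from its own row in all 7 count files. Malat1, Neat1 and F630028O10Rik had such a row, so that 3 of the 4 genes were measured, among 28719 genes with a row in at least 1 file. Gas5, the host RNA of a cluster of small nucleolar RNAs, was not analysed here. The genes were selected on their measured abundance, and the relation of the Malat1 share to the transcripts per cell was part of that choice, so their abundance and that relation are given as descriptions with no test. Tests are given for differences between healthy tissues, which were not a stated criterion of that choice. The genes were nevertheless chosen with earlier results of these data known, so these tests are not independent of the choice. The choice used no limit on the level, so no gene lies just inside or outside it.

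All cells were sorted as CD11b+ Ly6G+ PI-negative live neutrophils from male C57BL/6J mice and profiled in droplets on the 10X Chromium platform. Transcripts are captured by a poly(A) stretch and tagged before amplification with unique molecular identifiers (UMIs), and the counts are of such tags. Untreated mice gave bone marrow, peripheral blood and spleen in 2 runs, with 1 library for each tissue and run (n = 2 libraries per tissue). The mice were 6 weeks old in run 1 and 8 weeks old in run 2, and cells of 3 mice were pooled for each library by the study's methods, so age and run cannot be told apart. By the methods both runs used the same 10X chemistry, but the labels name several versions without tying them to libraries, so a difference in chemistry between the runs was not tested. In the inflammation library, cells from mice 8 weeks old carried hashtags for 5 conditions, each again a pool of 3 mice. These were healthy blood, blood and joint lavage on day 7 of K/BxN serum transfer arthritis (150 µl of serum on day 0 and on day 2), and lung lavage and peritoneal lavage 3 hours after 25 ng of IL-1β given into the nose or the peritoneum. With 1 pool per condition there was no test between conditions.

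Healthy cells were kept where S100a8 and S100a9, the alarmins that dominate neutrophil RNA, made up at least 3% of UMIs, which held for 12755 of 16907 cells. In the inflammation library, the 4852 of 4856 cells that the authors assigned to an ImmGen granulocyte class were kept. The kept cells held 1360064 to 9104133 UMIs per healthy library and 942688 to 10293966 per condition. The median cell held 775 to 2698.5 UMIs in healthy libraries and 2527 to 3681 in the conditions. All 15 neutrophil markers on the list used were detected, at 213004 to 503781 counts per 1000000 UMIs (CPM) summed over the list in healthy libraries. Markers of B cells summed to 4.47 to 927 CPM, T cells to 29.1 to 213 CPM, NK cells to 3.45 to 44.5 CPM (Prf1 was at 0) and monocytes or macrophages to 269 to 1391 CPM. Spleen of run 2 stood apart, since only 46.2% of its deposited cells were kept, and blood of run 2 held 30348 CPM of the erythroid list. The platelet list summed to 97.8 and 154 CPM in blood of runs 1 and 2, 3.06 and 3.51 CPM in bone marrow and 0 and 2.56 CPM in spleen, and its part in the blood contrasts was not tested. The libraries shared at most 27 barcodes among kept cells in any of 21 pairs, and no shared barcode had the same UMIs and genes.

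Malat1 is a nuclear RNA that collects in nuclear speckles, the stores of splicing factors, and its mature end is a triple helix made from encoded sequence rather than an added poly(A) tail. Neat1 is the scaffold of paraspeckles, nuclear bodies built on its long form with RNA-binding proteins, while its short form ends in a poly(A) tail. F630028O10Rik is the transcript from which the hairpin of miR-223 is cut, a microRNA that is characteristic of the myeloid lineage and restrains neutrophil production and inflammatory activity. Because the assay counts transcripts near sites where oligo-dT can prime and does not report small RNAs, it gives the level of this host transcript and not of miR-223, and it does not separate the forms of Malat1 or of Neat1.

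In GRCm38 (GENCODE vM21), Malat1 lies at chr19:5795690-5802672 on the minus strand, and its main transcript is a single exon of 6983 bases. Neat1 lies beside it at chr19:5824708-5845478, also on the minus strand, with a long form of 20771 bases, and 22035 bases separate the genes. F630028O10Rik spans chrX:96239926-96243636 on the plus strand. The annotated hairpin of Mir223, chrX:96242817-96242926, falls inside exon 3 of F630028O10Rik-201, starting 2891 bases after the start of the gene. The annotation also places a short RNA, Gm27694, inside Malat1 on its strand, a transcript of opposite strand, Gm37376, near its start, and 3 short RNAs inside Neat1.

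The mature forms cut from the F630028O10Rik transcript are shown because they are what ties this RNA to the genes compared below (RefSeq, GRCm38.p6, plus strand). Capitals mark the seed, bases 2 to 8 from the 5′ end, which pairs with target mRNAs. The 5p form lies at chrX:96242842-96242864 and the 3p form at chrX:96242884-96242905.
miR-223-5p: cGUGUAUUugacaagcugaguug
miR-223-3p: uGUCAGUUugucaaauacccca
Each of these seeds was held by 1 of 1738 mature mouse microRNAs in RefSeq, the form itself.

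The promoter of F630028O10Rik is printed because the C/EBP factors and PU.1, known to drive Mir223 in myeloid cells, were measured in the same cells. The window runs from 250 bases before to 50 bases after the start, chrX:96239676-96239975, plus strand (RefSeq, GRCm38.p6).
F630028O10Rik promoter: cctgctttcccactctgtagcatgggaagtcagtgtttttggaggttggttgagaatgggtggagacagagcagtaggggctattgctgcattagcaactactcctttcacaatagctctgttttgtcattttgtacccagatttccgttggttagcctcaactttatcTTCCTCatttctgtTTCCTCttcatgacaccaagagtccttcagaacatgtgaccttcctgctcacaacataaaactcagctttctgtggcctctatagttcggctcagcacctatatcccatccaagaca
Capitals mark 2 matches on the minus strand of GAGGAA, the core bound by PU.1, at 81 and 67 bases before the start. Both strands were searched, and 28.3% of 32851 promoters of this length held at least 1 match. The C/EBP pattern TTGCNNAA had 0 matches in the window, against 10.8% of promoters with at least 1.

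Libraries primed from poly(A) can also start at runs of A inside a transcript, so such runs were sought in the annotated transcripts of the 3 genes. Malat1-201 held a run of 12 A, 298 bases before its 3′ end, the only run of 10 or more in any of them. The longest run was 7 in Neat1-201, 5 in Neat1-202 and 7 in F630028O10Rik-202. Runs are in capitals, with 10 bases on either side.
Malat1-201: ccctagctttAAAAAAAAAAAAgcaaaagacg
Neat1-201: gaaccattagAAAAAAAcgttaaatca
F630028O10Rik-202: ccttatattgAAAAAAAtctggatatt
Whether reads started at these runs was not tested, since only counts per gene were used.

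Malat1 was the most abundant long noncoding RNA in all 11 pools, with 58.7% to 82.1% of all UMIs from long noncoding RNAs, and it ranked between the 3rd and the 14th among all genes. These shares and ranks rest on unequal sets of genes, since 123 to 163 long noncoding RNAs had a UMI in the libraries of run 1, 649 to 834 in those of run 2 and 443 to 1116 in the conditions. Its level was 31510.3 CPM in blood of run 1 and 34588 CPM in blood of run 2, or 3.15% and 3.46% of all UMIs. Bone marrow held 5585 CPM in run 1 and 10268 CPM in run 2. Spleen differed most between the runs, at 10226 CPM in run 1 and 36848 CPM in run 2. Markers of other cells differed with it, as B-cell markers summed to 21.96 CPM in spleen of run 1 and 927 CPM in that of run 2, and T-cell markers to 43.2 and 213 CPM. Without cells holding a B, T or NK marker UMI, which left 1147 of 2010 cells in spleen of run 2, the log2 change of Malat1 from bone marrow to spleen was 1.17, against 1.22 with them. Blood was thus above bone marrow in both runs, whereas spleen lay between them in run 1 and slightly above blood in run 2. The means were 33049 ± 2176 CPM in blood, 7927 ± 3311 in bone marrow and 23537 ± 18824.5 in spleen (SD, n = 2 libraries each), so that the order of spleen and blood was within their spread.

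**Figure D1:**
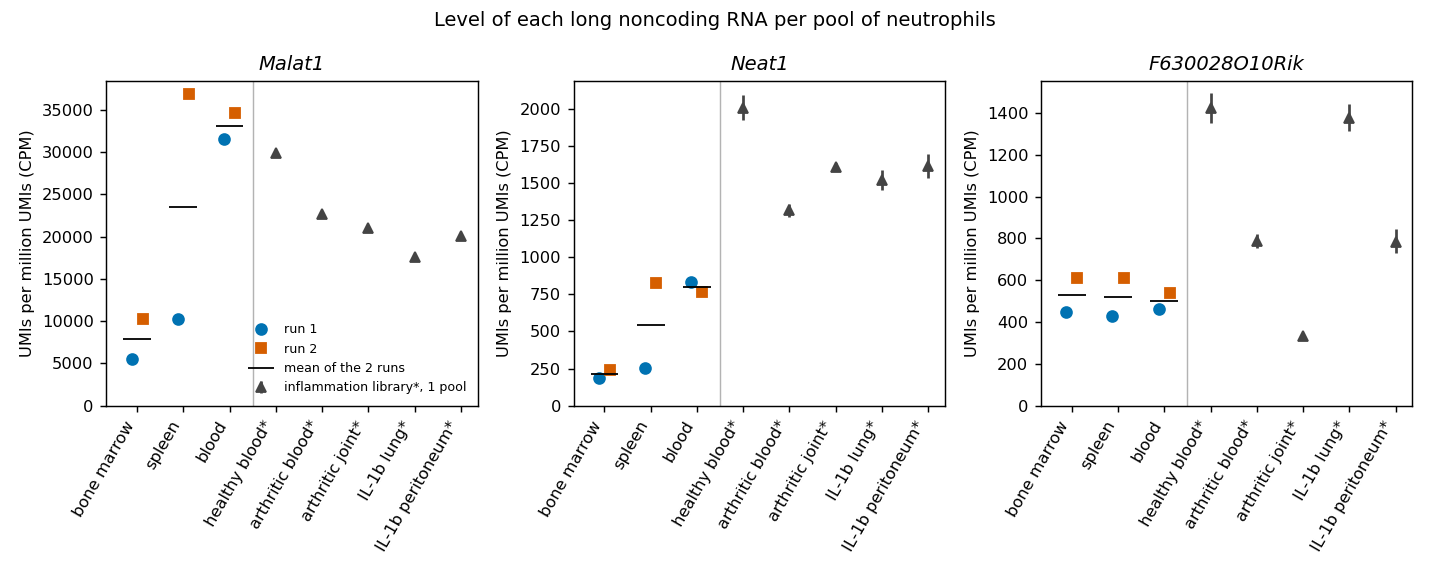
Counts per 1000000 UMIs (CPM, linear axes from 0) of Malat1, Neat1 and F630028O10Rik, with 1 point per healthy library (circles run 1, squares run 2, line the mean of both) and 1 triangle per condition of the inflammation library, with exact 95% Poisson intervals that cover counting error only. Malat1 and Neat1 are higher in both blood libraries than in both bone marrow libraries, while F630028O10Rik lies between 427 and 611 CPM in all 6 healthy libraries and is lowest in the joint, at 332 CPM.

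Neat1 followed the same order at a much lower level. Blood held 835 and 768 CPM in runs 1 and 2, bone marrow 187 and 243 CPM, and spleen 251 and 829.6 CPM. It ranked between the 3rd and the 6th among long noncoding RNAs of a pool. The means were 801 ± 47.4 CPM in blood, 215 ± 39.4 in bone marrow and 540 ± 409 in spleen (SD, n = 2), and the spleen libraries lay above both of bone marrow and on either side of the blood mean.

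F630028O10Rik was nearly level across healthy tissues. Its values in runs 1 and 2 were 462 and 541 CPM in blood, 450.2 and 611 CPM in bone marrow, and 427 and 609.8 CPM in spleen. Run 2 was above run 1 in all 3 tissues, and the tissues overlapped. The means, 502 ± 55.7, 531 ± 114 and 518 ± 129 CPM (SD, n = 2), differed by less than their spread. In both bone marrow libraries it ranked 2nd among long noncoding RNAs, ahead of Neat1, and in blood it ranked behind Neat1.

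Tissues were compared over the summed counts with the quasi-likelihood test of edgeR, which fitted 7809 genes with the run as a block and adjusted p over all of them (Benjamini-Hochberg, FDR). Between blood and bone marrow, 11.7% of genes were called higher in blood and 9.94% lower at an FDR of 0.05. Malat1 was higher in blood by 1.88 on the log2 scale (SE 0.34, 3.67-fold, FDR 0.0115), and 5.84% of genes had a larger change upward. Neat1 was higher by 1.65 (SE 0.34, 3.14-fold, FDR 0.0174), with 7.16% of genes above it. F630028O10Rik changed by −0.36 (SE 0.23, FDR 0.296) and was not called. With the run left out of the model, neither Malat1 (1.75, FDR 0.161) nor Neat1 (1.59, FDR 0.139) was called. Without blood of run 1, Malat1 was 1.38 (FDR 0.231) and Neat1 1.18 (FDR 0.234), and without blood of run 2 they were 2.28 (FDR 0.0843) and 2.03 (FDR 0.0807). These fits, with 1 blood library, called 57 and 0 genes in all, so the loss was not particular to the 2 RNAs.

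Spleen was less distinct. Against bone marrow, 2.24% of genes were called higher and 0.512% lower, and none of the 3 RNAs was called. The excess of higher over lower calls (175 and 40 genes) depended on the cells used, with 322 and 337 genes at 500 to 1500 UMIs, 303 and 282 without cells holding a monocyte, B, T or NK marker, 274 and 261 with granule genes under 1% and 115 and 0 with the study's cell filters. The RNAs had log2 changes of 1.22 for Malat1 (SE 0.33, FDR 0.120), 0.98 for Neat1 (SE 0.34, FDR 0.210) and −0.20 for F630028O10Rik (SE 0.23, FDR 0.710). The calls depended on which spleen library was kept. Without that of run 1, Malat1 was 1.59 (FDR 5.89e-05) and Neat1 1.47 (FDR 0.00120). Without that of run 2, Malat1 was 0.75 (FDR 0.266) and Neat1 0.37 (FDR 0.706). Each of these fits has 1 spleen library, assumed to vary like the other tissues. Malat1 was called as well without bone marrow of run 1 (1.12, FDR 0.0141) or of run 2 (1.33, FDR 0.00561), and Neat1 was not (1.02, FDR 0.168, and 0.92, FDR 0.567). Against blood, 0% of genes were called higher in spleen and 0.0512% lower (0 and 4 genes), while 801 of the 7809 genes had an unadjusted p under 0.05. The 4 genes, named after their values were seen, were Ctla2a, Gng11, Pf4 and Ppbp, of which Pf4 and Ppbp encode platelet chemokines. The changes were −0.65 for Malat1 (FDR 0.508), −0.67 for Neat1 (FDR 0.513) and 0.16 for F630028O10Rik (FDR 0.829).

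Blood and bone marrow also differed in the maturity of their cells and in UMIs per cell, and these values moved with the tissue difference. Cells in which the secondary granule genes, a mark of immature neutrophils, made up at least 1% of UMIs were 12.9% of run 1 blood, 75.3% of run 1 bone marrow and 48.0% of run 1 spleen. In run 2 they were 1.53%, 64.4% and 4.08%. The median cell of run 1 held 809.5, 2698.5 and 1355 UMIs in blood, bone marrow and spleen, and that of run 2 held 826, 2133.5 and 775. When only cells with granule genes under 1% of UMIs were summed, Malat1 remained higher in blood than in bone marrow by 1.13 on the log2 scale (FDR 0.00927) and Neat1 was 0.79 (FDR 0.0641). With only cells of 500 to 1500 UMIs, Malat1 was higher by 1.00 (FDR 0.000122) and Neat1 by 0.65 (FDR 0.0406). With both limits the values were 0.92 for Malat1 (FDR 2.21e-06) and 0.57 for Neat1 (FDR 0.0540). Without cells that held any monocyte, B, T or NK marker UMI, Malat1 was higher by 1.17 (FDR 0.000501) and Neat1 by 0.88 (FDR 0.0177). The tissue difference of Malat1 therefore narrowed but stayed past the threshold under each of these limits, and that of Neat1 did not under the limits on granule genes. In the same cells spleen was above bone marrow for Malat1 by 0.94 with the granule limit (FDR 0.0261), 0.78 with the UMI limit (FDR 0.00116) and 0.74 with both (FDR 5.6e-05). Neat1 was 0.54 (FDR 0.234), 0.44 (FDR 0.179) and 0.37 (FDR 0.256) under these limits. The UMI limit did not make depth equal. Within it, 153 bone marrow cells of run 1 held 205800 UMIs and 1102 blood cells 897880. In run 2, 873 bone marrow cells held 1101774 UMIs and 3431 blood cells 2929253. Both limits left 104 bone marrow cells of run 1, and removing cells with a marker left 143. The part of the depth that still differed was not tested.

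**Figure D2:**
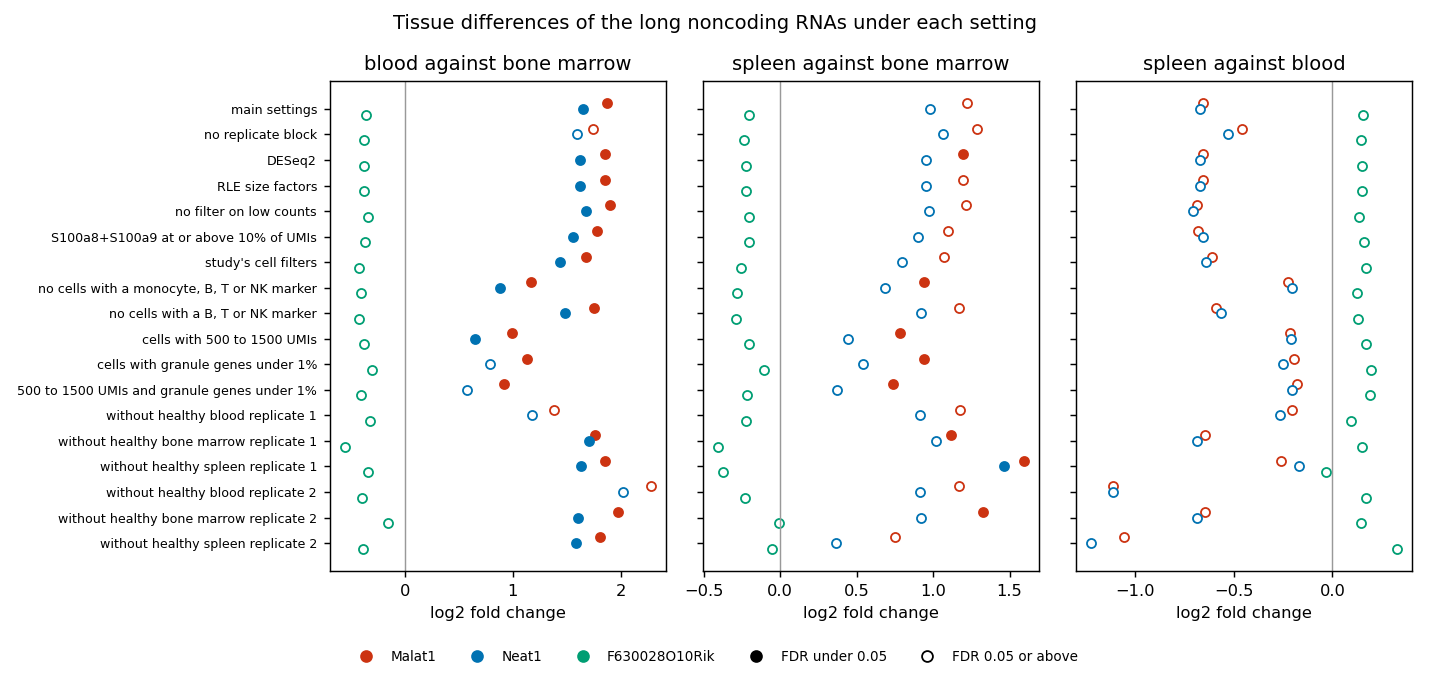
Log2 fold change of Malat1, Neat1 and F630028O10Rik in the 3 tissue comparisons (1 panel each), with 1 row for each way of choosing cells, libraries or model; filled circles had an FDR under 0.05 and open ones did not. For blood against bone marrow, Malat1 falls from 1.88 with all cells to 0.92 with both limits, and F630028O10Rik stays at or below −0.16 in every row.

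Within every library, cells with few granule transcripts held more Malat1 and Neat1 in CPM than granule-rich cells. In bone marrow of run 1, Malat1 was 10774 CPM in cells with granule genes under 1% of UMIs and 4778 CPM in the others, a ratio of 2.25. The ratio was 2.19 in bone marrow of run 2, 3.71 and 3.37 in blood, and 5.18 and 4.30 in spleen (runs 1 and 2), so that it exceeded 1 in 6 of 6 libraries. Neat1 gave ratios of 2.46 to 5.58, also above 1 in 6 of 6. F630028O10Rik gave ratios of 0.809 to 1.39, above 1 in 3 of 6 libraries. The counting intervals of its ratio included 1 in 4 of the 6 libraries. Granule-rich cells were also the larger ones, with a median of 2223 to 3585 UMIs against 766.5 to 1641, and the ratios in CPM carry that difference. In blood of run 1, for instance, granule-rich cells held 25.0 Malat1 and 0.571 Neat1 UMIs per cell, against 34.0 and 0.913 in the others. F630028O10Rik was at 1.07 UMIs per cell in granule-rich cells there and at 0.395 in the others.

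**Figure D3:**
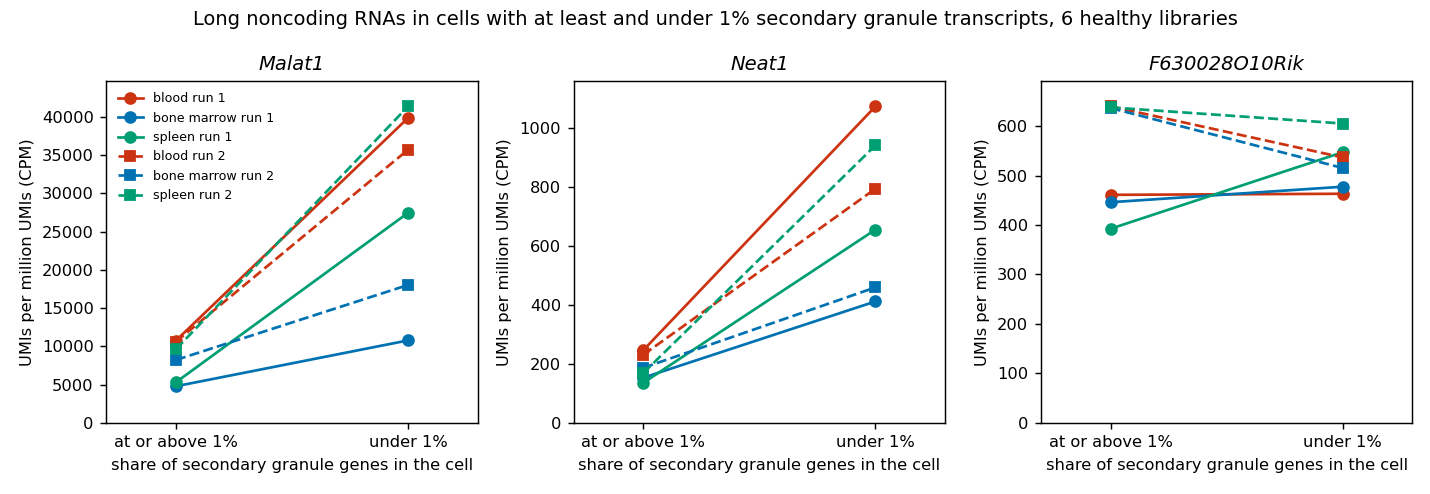
CPM (linear axes from 0) of each RNA in cells with secondary granule genes at or above 1% of UMIs and in cells under 1%, with 1 line per healthy library (circles run 1, squares run 2). Malat1 and Neat1 are higher in the cells under 1% in all 6 libraries, and F630028O10Rik is in 3 of them.

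Counted per cell rather than in CPM, the tissues were closer. For blood, bone marrow and spleen in this order, a cell held on average 32.8, 19.7 and 24.2 Malat1 UMIs in run 1 and 32.8, 27.3 and 35.9 in run 2. The means of Neat1 were 0.869, 0.660 and 0.594 UMIs per cell in run 1 and 0.728, 0.646 and 0.807 in run 2. F630028O10Rik turned the other way, with 1.59 and 1.62 UMIs per cell in bone marrow against 0.482 and 0.513 in blood, and 1.01 and 0.594 in spleen. Blood was above bone marrow in Malat1 on both scales in both runs, whereas F630028O10Rik overlapped in CPM and was higher in bone marrow per cell.

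The share of a cell's UMIs taken by Malat1 fell with its total UMIs in all 11 pools. The Spearman correlation across the cells of run 1 was −0.571 in blood (1306 cells), −0.594 in bone marrow (1206 cells) and −0.766 in spleen (1135 cells). Across those of run 2 it was −0.190 (3672 cells), −0.532 (3426 cells) and −0.198 (2010 cells). In the conditions it ranged from −0.771 in the IL-1β lung (380 cells) to −0.193 in the arthritic joint (2857 cells). The cells of a pool share a library, and the total is the denominator of the share. With Malat1 left out of the total, the correlation was −0.611, −0.599 and −0.779 in blood, bone marrow and spleen of run 1 and −0.254, −0.544 and −0.288 in those of run 2.

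From cells with few UMIs to cells with many, Malat1 molecules rose less than the rest of the transcriptome in each pool, by a margin that varied. From the lowest to the highest quartile of cells by their other UMIs, the mean of those other UMIs increased 3.65-fold, 4.75-fold and 6.83-fold in blood, bone marrow and spleen of run 1 and 2.32-fold, 4.04-fold and 2.65-fold in those of run 2. Over the same quartiles Malat1 UMIs per cell changed 1.09-fold, 1.53-fold and 0.953-fold in run 1 and 1.54-fold, 1.44-fold and 1.51-fold in run 2. In the conditions Malat1 rose 1.21-fold to 1.91-fold, against 2.53-fold to 9.43-fold for the other UMIs. The margin was narrowest in the joint, where Malat1 rose 1.91-fold against 2.53-fold, and in blood of run 2. In the healthy libraries Neat1 UMIs per cell changed 0.973-fold to 2.13-fold and its share was 0.146 to 0.932 times that of the lowest quartile, with a Spearman correlation of the share with UMIs per cell of −0.149 to 0.060. F630028O10Rik UMIs per cell increased 2.21-fold to 4.94-fold there, its share was 0.649 to 1.24 times that of the lowest quartile, and the correlation was 0.074 to 0.171. In blood of run 2 Neat1 and F630028O10Rik were close, at 2.13-fold and 2.21-fold. In the conditions the share of F630028O10Rik did fall, to 0.348, 0.394, 0.787, 0.258 and 0.436 times that of the lowest quartile. These values are for healthy blood, arthritic blood, joint, lung and peritoneum. Its correlation was −0.259 and −0.220 in the bloods and −0.042 to 0.068 at the other sites. The Neat1 share fell further, to 0.188, 0.304, 0.751, 0.160 and 0.204 times in the same order. Its correlations there were −0.520, −0.429, −0.131, −0.466 and −0.460. Maturity moved along the quartiles as well, from 2.46% granule-rich cells in the lowest to 100% in the highest in spleen of run 1, and the part of maturity in the relation was not tested.

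**Figure D4:**
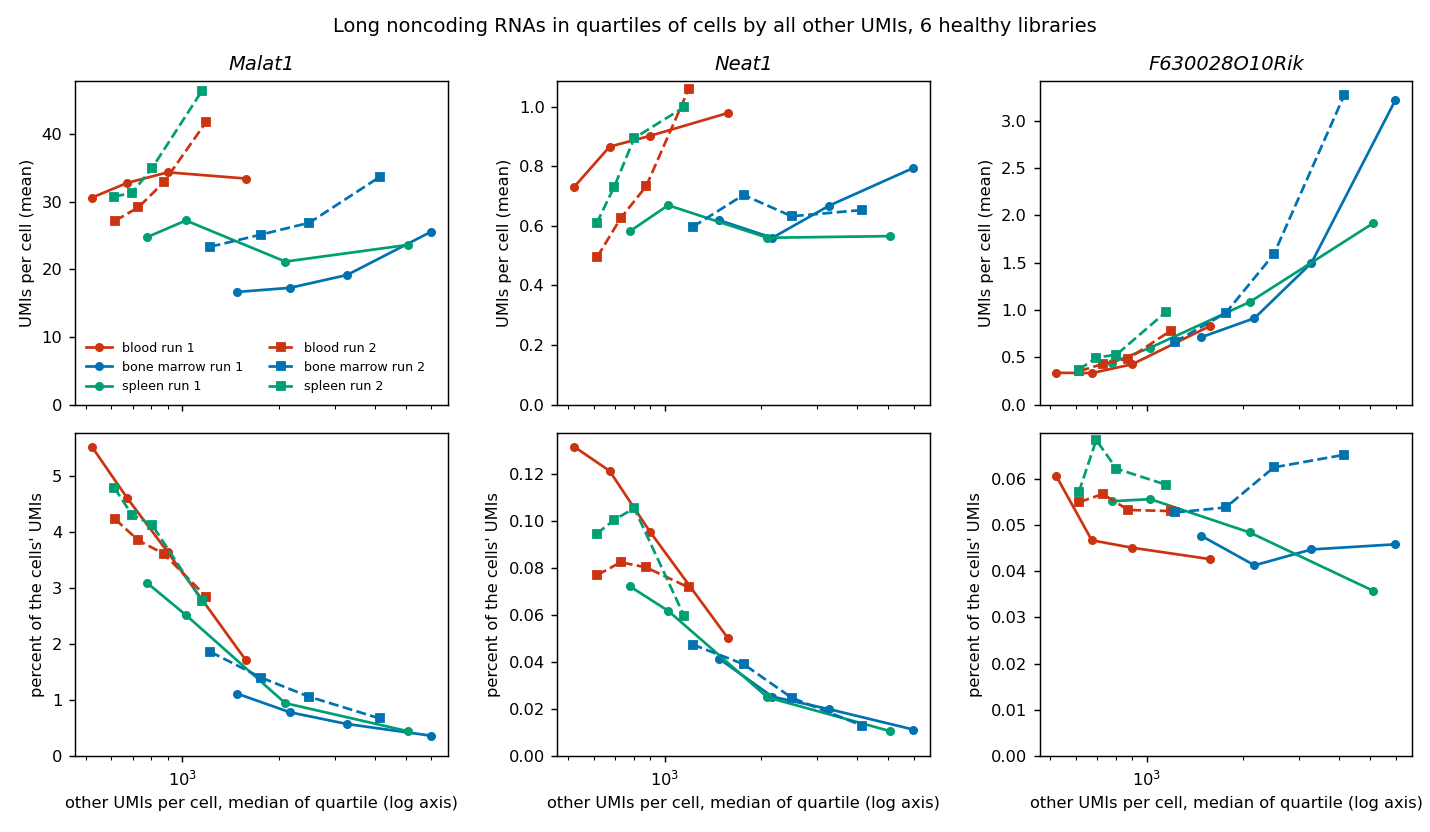
Mean UMIs per cell (upper panels) and percent of the cells' UMIs (lower panels) of each RNA in quartiles of cells, against the median of all other UMIs in the quartile (log axis), with 1 line per healthy library. The share of Malat1 falls along every line while its UMIs per cell change 0.953-fold to 1.54-fold between the outer quartiles, and UMIs per cell of F630028O10Rik rise 2.21-fold to 4.94-fold.

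Mitochondrial share is a common sign of RNA quality, and its relation to Malat1 differed between experiments. The Spearman correlation of the Malat1 share with the mitochondrial share was −0.241 to −0.006 in healthy libraries and 0.156 to 0.543 in the conditions. The median cell had 0.0835% to 0.307% mitochondrial UMIs in healthy libraries and 0.280% to 0.353% in the conditions. In the lowest quartile of cells by other UMIs, the median was 1.34% in healthy blood of the inflammation library and 1.56% in arthritic blood. It was 1.77% in the lung and 1.36% in the peritoneum, against 0.179% to 0.318% in the other quartiles of these pools. In the joint the lowest quartile had 0.344%. Individual cells varied widely, and the Malat1 share of a cell was a median of 3.57% in blood of run 1 (5th to 95th percentile 0.856% to 8.10%) and 0.594% in bone marrow of run 1 (0.159% to 1.70%). More than 5% of UMIs came from Malat1 in 28.2% and 20.2% of blood cells, 0% and 0.584% of bone marrow cells, and 3.26% and 30.6% of spleen cells (runs 1 and 2).

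To compare detection at 1 depth, cells were reduced to 500 randomly drawn UMIs, which left out 26 shallower cells of run 1 blood. Malat1 was then seen in 99.5%, 89.9% and 93.6% of cells in blood, bone marrow and spleen of run 1 and in 99.9%, 96.6% and 99.95% in those of run 2. Neat1 was seen in 37.4%, 11.1% and 19.2% of the cells of run 1 and in 31.4%, 13.3% and 35.2% of those of run 2, more in blood than in bone marrow both times. F630028O10Rik was seen in 19.03% to 24.8% of cells in every healthy library. Before thinning, F630028O10Rik was found in 64.0% and 65.4% of bone marrow cells and in 31.9% and 35.3% of blood cells, at the unequal depths given above.

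Red cells lose their nucleus and should lack such transcripts, and the shares above were larger than theirs. In blood of run 2, 717 droplets with mostly haemoglobin UMIs (median 2753 UMIs) served as background, and at 500 UMIs they showed Malat1 in 20.5%, Neat1 in 4.32% and F630028O10Rik in 0.976%. Haemoglobin took most of the 500 UMIs in these droplets, so fewer other UMIs were drawn from them than from neutrophils. No such background was taken from the other libraries. Cells of run 2 with at least 5 UMIs of B-cell markers held Malat1 at 33325 to 39183 CPM, about the level of blood neutrophils. In those cells F630028O10Rik was seen in 1.12% to 5.06% and Neat1 in 5.69% to 11.4%. Malat1 was therefore not particular to neutrophils, whereas the host transcript of miR-223 was seen in a larger share of neutrophils than of either other class in run 2 at 500 total UMIs.

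In the inflammation library, Malat1 was highest in healthy blood, at 29889 CPM (exact 95% Poisson interval 29571 to 30211). Arthritic blood held 22655 CPM, the arthritic joint 20999 CPM, the IL-1β lung 17630 CPM (17404 to 17857) and the IL-1β peritoneum 20051 CPM. Per cell the order differed, with 66.1 Malat1 UMIs in healthy blood, 74.96 in arthritic blood, 75.7 in the joint, 61.3 in the lung and 64.7 in the peritoneum. Neat1 was 2006 CPM in healthy blood, 1317 in arthritic blood, 1609 in the joint, 1521 in the lung and 1613 in the peritoneum. The chemistry of this library differed from that of the healthy runs by the study's methods, and levels were not tested across them.

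Relative to healthy blood, the CPM of Malat1 and Neat1 were lower at each site, but so was the median gene. Malat1 stood at 0.758, 0.703, 0.590 and 0.671 times healthy blood in arthritic blood, joint, lung and peritoneum, and Neat1 at 0.656, 0.802, 0.758 and 0.804 times. The median ratio of all genes was 0.752, 0.703, 0.476 and 0.451. On TMM scaling, which moved the median gene by 0.461, 0.556, 0.901 and 0.911 (log2), Malat1 turned to 1.04, 1.03, 1.10 and 1.26 times healthy blood, and Neat1 to 0.903, 1.18, 1.42 and 1.51 times. With cells limited to 1000 to 3000 UMIs, Malat1 was 1.04, 0.930, 1.06 and 0.773 times, and Neat1 0.899, 1.14, 1.26 and 1.24 times. TMM scaling multiplies every gene of a comparison by the same factor, so these values carry that shift and are no separate measurement of the 2 RNAs. Neat1 in arthritic blood was below healthy blood under each of these settings. Malat1 in the joint and in the peritoneum was below it in CPM and with the UMI limit and above it on TMM scaling alone. For Malat1 in arthritic blood and lung, and for Neat1 in the joint, lung and peritoneum, the direction also turned with the UMI limit. At a fold of 1.5 in CPM, 34.1%, 46.2%, 64.7% and 65.7% of genes were lower at the 4 sites and 2.98%, 14.3%, 14.8% and 14.1% higher. Granule-rich cells were 0.589% of healthy blood, 0.983% of arthritic blood, 0.245% of joint, 8.68% of lung and 38.7% of peritoneum cells. In the peritoneum Malat1 was 16624 CPM in granule-rich cells and 23182 CPM in the others. The part of maturity in these ratios was not tested.

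Both bloods and the IL-1β lung held an ImmGen class of Malat1-rich cells with few UMIs. In the IL-1β peritoneum such cells appeared by depth and not by class. Its lowest quartile by other UMIs had a median of 548 of them and 7.69% Malat1, against 1.49% in its highest quartile. Its 163 cells of class GN.Thio.PC had a median of 2950 UMIs. In healthy blood, 149 of 509 cells belonged to the ImmGen class GN.UrAc.PC, with a median of 590 UMIs and 104985 CPM of Malat1, 7332 CPM of Neat1 and 3213 CPM of F630028O10Rik. The 353 cells of class GN.Bl had a median of 2854 UMIs and 22669, 1496 and 1249 CPM. Arthritic blood held 131 cells of GN.UrAc.PC, again with a median of 590 UMIs, and 106361 CPM of Malat1, against 20114 CPM in its 659 cells of GN.Bl. In the lung, 74 cells of GN.Thio.PC had a median of 675.5 UMIs and 48744 CPM of Malat1, against a median of 4213 UMIs and 14994 CPM in its 275 cells of GN.Arth.SynF. Within GN.Bl, which both bloods held in numbers, Malat1 thus differed by less than in the pools, and F630028O10Rik was 1249 CPM in healthy and 726 CPM in arthritic blood. Cells with S100a8 and S100a9 under 3% of UMIs were 19.8% of healthy blood, 7.62% of arthritic blood, 8.30% of joint, 23.4% of lung and 20.2% of peritoneum cells.

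F630028O10Rik separated the joint from the other conditions. It stood at 1422 CPM (1354 to 1494) in healthy blood and 1376 CPM (1314 to 1441) in the lung, at 789 CPM in arthritic blood and 785 CPM in the peritoneum, and at 332 CPM (321 to 344) in the joint. Joint cells thus held 4.28-fold less than healthy blood (95% interval 4.03 to 4.54, counting error only) and 2.37-fold less than blood of the arthritic mice (2.25 to 2.51). Of all genes measured, 2.80% had a lower ratio of joint to healthy blood and 5.21% a lower ratio of joint to arthritic blood, in which 21.2% of genes were at least 1.5-fold lower and 22.9% higher. With TMM scaling the ratio of joint to healthy blood was 0.344 and with 1000 to 3000 UMIs it was 0.293, and the ratio of joint to arthritic blood was 0.450 and 0.507. The direction was the same under each of these settings, and in the joint each of the 4 ImmGen classes examined held 307 to 514 CPM.

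**Figure D5:**
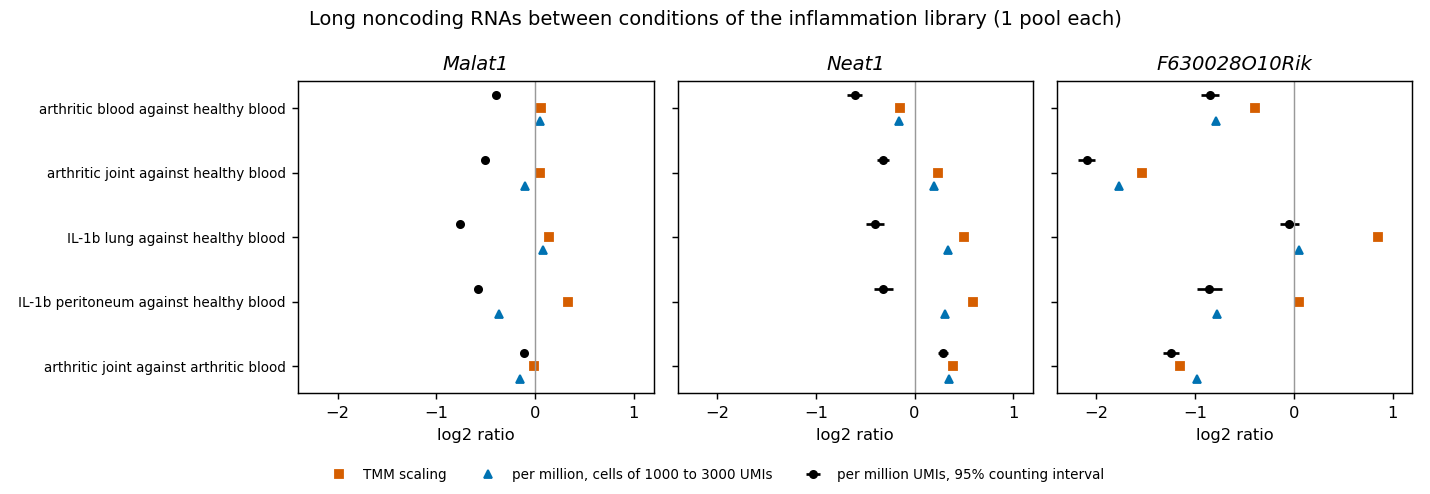
Log2 ratio of each RNA between conditions of the inflammation library, 1 pool each, in CPM (circles, with exact 95% intervals from counting error), with TMM scaling (squares) and in CPM of cells with 1000 to 3000 UMIs (triangles). In the joint, F630028O10Rik lies below 0 by all 3 measures against both healthy and arthritic blood, at −2.10 in CPM against healthy blood, whereas those of Malat1 and Neat1 against healthy blood lie on both sides of 0, except for Neat1 in arthritic blood, which lies below 0 by all 3.

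In arthritic blood F630028O10Rik was below healthy blood under each setting, at 0.554 times (0.519 to 0.592) in CPM, 0.763 times on TMM scaling and 0.578 times with 1000 to 3000 UMIs. At the IL-1β sites its ratio depended on the scale. In the lung it was 0.967 times (0.904 to 1.04) in CPM, 1.81 times on TMM scaling and 1.04 times with 1000 to 3000 UMIs. In the peritoneum it was 0.552 times in CPM, 1.04 times on TMM scaling and 0.582 times with 1000 to 3000 UMIs. Per cell, lung cells carried 4.78 UMIs, healthy blood cells 3.14, arthritic blood cells 2.61, peritoneal cells 2.53 and joint cells 1.197. After thinning to 1000 UMIs, F630028O10Rik was seen in 65.5% of healthy blood cells, 45.8% of arthritic blood cells, 45.8% of lung cells, 30.3% of peritoneal cells and 22.9% of joint cells, with 155, 140, 94, 61 and 123 shallower cells left out.

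Neat1 was also compared between joint and blood of the arthritic mice, where the median gene barely moved (ratio 0.975). The joint held 1.22 times the Neat1 of arthritic blood (1.18 to 1.27), 1.31 times on TMM scaling and 1.27 times with 1000 to 3000 UMIs. Malat1 was 0.927, 0.990 and 0.898 times. Neither passed 1.5-fold.

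Genes that act with these RNAs were read from lists chosen with earlier results of these data known. Their counts between blood and bone marrow are to be read against 11.7% of all genes called higher and 9.94% called lower, and against a median change of −0.02. Of 36 other long noncoding RNAs listed, Malat1 and Neat1 included, 11 were tested, 7 were higher in blood, 0 were lower, and their median change was 1.28. Without Malat1, Neat1 and F630028O10Rik, 5 of 8 were higher, and AW112010 (−0.16), Gm26917 (−0.41) and Kcnq1ot1 (−0.20) were not called. These were 1600010M07Rik (1.80, FDR 0.00512), Mir142hg (1.39, FDR 0.0118), the host RNA of miR-142, Ptgs2os2 (1.37, FDR 0.0170), transcribed beside the prostaglandin synthase gene Ptgs2, Gm42418 (1.28, FDR 0.0401), which overlaps ribosomal RNA sequence, and Mirt1 (1.04, FDR 0.0272). Of the other host RNAs of small nucleolar RNAs, the class Gas5 belongs to, 3 were tested, and Snhg6 was lower in blood (−1.94, FDR 0.0305) while 2 were not called. Snhg6 rested on 7 and 8 UMIs in blood against 44 and 95 in bone marrow (runs 1 and 2).

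The protein partners did not move with the scaffolds as a group. Of 18 paraspeckle proteins tested, 2 were lower in blood than in bone marrow and 15 were not called, with a median of −0.31, so that 11.1% were called lower. Nudt21, a cleavage factor subunit that promotes the end of the short form of Neat1, was lower (−2.05, FDR 0.00738), at 6.62 and 13.8 CPM against 38.6 and 34.1 CPM, and Dazap1 was lower too (−1.16, FDR 0.0277). Both blood libraries lay below both bone marrow libraries for Nudt21.

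Among 26 nuclear speckle and splicing proteins, 2 were higher in blood (7.69%), 5 were lower (19.2%) and the median change was −0.07. Clk1, a kinase of the SR splicing factors, was higher (1.38, FDR 0.0131), and Rsrp1 was as well (1.06, FDR 0.0312). Srsf3 and Srsf7, SR factors themselves, were lower (−2.05, FDR 0.00355, and −1.31, FDR 0.0162). Among 14 factors of nonsense-mediated decay, the pathway that degrades many spliced host RNAs such as that of Gas5, 1 was higher (Smg1, 1.078, FDR 0.0172) and 1 lower (Smg9, −1.62, FDR 0.0451). Of 19 mRNAs with a terminal oligopyrimidine tract, the motif Gas5 shares, 1 was higher (Fau, 1.38, FDR 0.0140) and 3 lower, among them Eif3e (−1.89, FDR 0.00561) and Hnrnpa1 (−1.40, FDR 0.0268). Hnrnpa1 rested on few counts, with 2 and 42 UMIs in blood against 12 and 247 in bone marrow (runs 1 and 2). In the last list 5.26% were higher and 15.8% lower, against 11.7% and 9.94% of all genes, and the median was −0.12. The shares called in the decay list, 7.14% in each direction, were below those of all genes.

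Regulators and known targets of miR-223 moved in both directions. Of 14 tested between blood and bone marrow, 6 were higher (42.9%), 3 were lower (21.4%), and their median change was 0.83, against 11.7%, 9.94% and −0.02 for all genes. Nlrp3, the inflammasome sensor whose mRNA miR-223 targets, was higher in blood by 2.74 (FDR 0.00319), at 110 and 101 CPM against 11.3 and 14.8 CPM. It was the only listed gene called between spleen and bone marrow (1.93, FDR 0.0277), and none was called between spleen and blood. Nfia, another known target, was also higher (1.41, FDR 0.0158). Stmn1, a target that binds tubulin, was lower (−4.20, FDR 0.00512), as was Cebpe, a factor of granulocyte maturation (−3.10, FDR 0.00768). Stmn1 rested on 3 and 28 UMIs in blood and differed between the runs in bone marrow, at 9.42 and 169 CPM (40 and 1542 UMIs). F630028O10Rik itself was not called, as given above.

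In the inflammation conditions, the C/EBP factors differed in opposite directions, each with 1 pool per condition and no test. Cebpb, a C/EBP factor of acute inflammation, was 1126 CPM in healthy blood and 6284 CPM in the joint, 5695 CPM in the lung and 4326 CPM in the peritoneum, which is 5.58-fold, 5.06-fold and 3.84-fold higher. Cebpa, a C/EBP factor of early granulocytes, was 0.177 times healthy blood in the joint (47 UMIs against 29 from a smaller pool). It was 0.0294 times healthy blood in the lung and 0.0411 times in the peritoneum, with 1 UMI in each. Known targets of miR-223 lay on both sides of healthy blood. Nlrp3 was 1.502-fold, 2.48-fold and 3.11-fold higher in joint, lung and peritoneum, whereas Nfia was 0.311 times healthy blood in the joint (148 UMIs against 52 from a smaller pool). Mef2c, another known target, was 17.8 CPM in healthy blood, 5.94 CPM in arthritic blood (16 UMIs) and 19.5 CPM in the joint, so that it was 0.334 times healthy blood in arthritic blood and 3.29 times arthritic blood in the joint (95% interval 1.97 to 5.86). Between joint and arthritic blood, Cebpb was 3.77-fold higher and Cebpa 0.241 times as high. In all, 2 of 12 measured genes of the list were at least 1.5-fold higher in the joint than in healthy blood and 8 were lower, with a median ratio of 0.596. Over all genes 14.3% were higher and 46.2% lower, with a median ratio of 0.703.

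Of the remaining lists, the long noncoding RNAs had a median ratio of 0.660, 0.806, 0.791 and 0.671 to healthy blood in arthritic blood, joint, lung and peritoneum. Ptgs2os2 stood out among them in the joint, at 228 CPM against 33.8 CPM in healthy blood (6.75-fold). It was 76.5 CPM in the lung and 60.5 CPM in the peritoneum, and 8.90-fold higher in the joint than in arthritic blood. Larger rises at the IL-1β sites rested on few counts, with AW112010 at 18 UMIs in the lung against 0 in healthy blood. Mir155hg was at 25 UMIs in the peritoneum against 1. 1600010M07Rik was lower in joint, lung and peritoneum, at 0.441, 0.138 and 0.251 times healthy blood. Mir142hg was 0.597 times healthy blood in arthritic blood. The shift from TMM scaling given above is smaller than each of these folds of Cebpb, Cebpa, Mef2c, 1600010M07Rik and Mir142hg. Paraspeckle proteins had medians of 0.580, 0.633, 0.467 and 0.588, speckle and splicing proteins 0.697, 0.710, 0.516 and 0.553, decay factors 0.771, 0.794, 0.393 and 0.373, mRNAs with the oligopyrimidine tract 0.741, 0.526, 0.374 and 0.364, and the host RNAs of small nucleolar RNAs, with 2 measured, 0.382, 0.606, 0.562 and 0.425.

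Patterns across the 11 pools were compared after centring within each run and within the inflammation library, over 2042 genes with a mean of at least 50 CPM. Malat1 and Neat1 had a Pearson correlation of 0.973, whereas F630028O10Rik had 0.0444 with Malat1 and 0.0540 with Neat1. The genes most like Malat1 were Csf1r (0.988), the receptor of macrophage colony-stimulating factor, H2-Q10 (0.982), a class I histocompatibility gene, and Trim12a (0.979). Csf1r stood at 114 and 91.1 CPM in blood, 11.3 and 14.9 CPM in bone marrow, and 30.1 and 85.4 CPM in spleen, so that spleen lay between the others in run 1, as for Malat1, and below blood in run 2, unlike Malat1. Csf1r is also on the monocyte list, which summed higher in bone marrow (1391 and 1020.4 CPM) than in blood (640.4 and 269 CPM). Those most like Neat1 were Clk1 (0.990), Tmbim4 (0.989) and Kdm2a (0.980). For F630028O10Rik they were Atp2c1 (0.918), Sla (0.876) and Gpr65 (0.821), but among the healthy libraries alone these values were 0.651, 0.249 and −0.0491, so that the likeness came from the inflammation conditions. Pools of a run share mice and library preparation, and the correlations are descriptions.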

How the data were processed

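Counts were UMIs per gene symbol and cell barcode, deposited by the authors after alignment to mm10 with Cell Ranger (per the labels and the submitters' processing notes). The deposited table of inflammation cells gives hashtag conditions, ImmGen classes and, among other columns, fractions that were not used. Hashtag doublets had been removed by the authors. No doublet caller was run and free RNA was not corrected.

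Healthy cells with S100a8 and S100a9 at or above 3% of UMIs, and inflammation cells of an ImmGen granulocyte (GN) class, were kept and summed per library or condition. Members and gene lists were chosen with earlier results of these data known. Sums of the 6 healthy libraries were compared with edgeR 4.0.16 in R 4.3.3 (filterByExpr, TMM, quasi-likelihood, run as a block, FDR 0.05), tested on simulated data. DESeq2 1.42.0 was an alternative, as were other filters on cells and leaving out each library. By the study's methods the tissues of a run come from the same 3 pooled mice, and deviations from tissue means correlated at 0.597, 0.550 and 0.631 for blood with bone marrow, blood with spleen and bone marrow with spleen. With 2 libraries per tissue, p-values measure the spread between these libraries only.

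Conditions had 1 pool each and were compared as ratios of CPM with exact 95% intervals, at a fold of 1.5 and 10 CPM in either condition. Poisson intervals cover counting error only. Shares of cells were thinned to 500 UMIs (healthy) or 1000 (conditions) with Python 3.11.15 and numpy 2.4.6. Genes of each list were named by the largest change among those called, up to 2 per direction, and the 3 genes most alike by Pearson correlation of log2(CPM + 1). Coordinates are of GRCm38, from GENCODE vM21 and RefSeq. Of the long noncoding RNAs called in blood, those beyond this rule were named after their values were seen. Gas5 and a result from the gene lists are not reported here.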

Additional observations from a re-analysis of the deposited data

Results flagged for a closer look

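The within-run log2 ratios of CPM had opposite signs in the 2 runs for 4 results, with 1 library per tissue and run, so that the difference between runs was not tested. Malat1 in spleen against blood was −1.62 in run 1 and 0.091 in run 2, and Neat1 was −1.73 and 0.11. F630028O10Rik was 0.039 and −0.18 in blood against bone marrow and −0.12 and 0.17 in spleen against blood. Granule-rich cells were 48.0% of spleen cells in run 1 and 4.08% in run 2, and their part in these values was not tested.

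Healthy cells under the limit of 3% for S100a8 and S100a9, which no comparison used, held 24076.3 CPM of Malat1, 191 CPM of Neat1 and 84.6 CPM of F630028O10Rik over the 6 libraries. Just under the limit (2% to 3%, 234 cells) the levels were 36029 CPM of Malat1, 775 of Neat1 and 453 of F630028O10Rik, and just above it (3% to 4%, 213 cells) 42494, 835 and 609.9 CPM.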

How the results depend on the processing

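The replicate block moved the calls. Without it, the genes called fell from 1693 to 164 for blood against bone marrow, from 215 to 0 for spleen against bone marrow and from 4 to 0 for spleen against blood (2024, 663 and 456 had an unadjusted p under 0.05), and Malat1 (1.75) and Neat1 (1.59) lost their calls in blood against bone marrow. The cause of these and the other changes was not tested.

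For blood against bone marrow, genes called were 786 without cells holding a monocyte, B, T or NK marker, 745 with 500 to 1500 UMIs, 640 with granule genes under 1% and 639 with both. Neat1 lost its call with granule genes under 1% (0.79) and with both (0.57). For spleen against bone marrow, genes called were 115 with the study's cell filters, 585 without marker cells, 659 with 500 to 1500 UMIs, 535 with granule genes under 1% and 634 with both. Malat1 was called there with DESeq2 (1.197, FDR 0.00311), without marker cells (0.94), with 500 to 1500 UMIs (0.78), with granule genes under 1% (0.94) and with both (0.74). For spleen against blood, genes called were 28 with DESeq2, 18 with no filter on low counts, 19 with a limit of 10% for S100a8 and S100a9, 15 with 500 to 1500 UMIs, 9 with granule genes under 1% and 29 with both. The other 90 log2 fold changes of the 3 RNAs kept their direction and side of the threshold.

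Leaving out 1 library at a time gave 0 to 2626 genes called for blood against bone marrow, 0 to 1250 for spleen against bone marrow and 0 to 245 for spleen against blood. Log2 fold changes then ranged from 1.38 to 2.28 (Malat1), 1.18 to 2.03 (Neat1) and −0.56 to −0.16 (F630028O10Rik) for blood against bone marrow, from 0.75 to 1.59, 0.37 to 1.47 and −0.41 to −0.01 for spleen against bone marrow, and from −1.11 to −0.21, −1.22 to −0.17 and −0.03 to 0.33 for spleen against blood. The lone remaining library of a tissue was assumed to vary like the others. F630028O10Rik turned to −0.034 in spleen against blood without spleen of run 1.

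Ratios to healthy blood in arthritic blood, joint, lung and peritoneum, in this order, moved as follows. With TMM scaling Malat1 was 1.04, 1.03, 1.10 and 1.26, Neat1 0.903, 1.18, 1.42 and 1.51, and F630028O10Rik 0.763, 0.344, 1.81 and 1.04. With 1000 to 3000 UMIs Malat1 was 1.04, 0.930, 1.06 and 0.773 and Neat1 0.899, 1.14, 1.26 and 1.24, and F630028O10Rik was 0.293 in the joint and 1.04 in the lung. With S100a8 and S100a9 at or above 3%, Malat1 was 0.840 in arthritic blood, 0.810 in the joint and 0.6999 in the peritoneum, and Neat1 0.740, 0.928 and 0.860. In joint against arthritic blood, TMM scaling gave 0.990, 1.31 and 0.450 for Malat1, Neat1 and F630028O10Rik, 1000 to 3000 UMIs gave 0.898, 1.27 and 0.507, and the S100a8 and S100a9 limit gave 0.964 for Malat1. The other 25 ratios moved by less than their interval. All 28 alternatives of the correlation of Malat1 share with UMIs kept its sign. Removing B, T and NK marker cells alone, combining the UMI and granule limits, and the S100a8 and S100a9 limit in the conditions were chosen after seeing the data. With 40 and 45 lung and peritoneum cells of 1000 to 3000 UMIs, and with 2 libraries per tissue, a missing call does not show that levels were equal.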
